A study of Mus musculus with 26 samples.

Results

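The IL-6 family genes described here were Il6, Lif and Il11, which encode ligands, and Il6ra, Il6st and Osmr, which encode receptor chains. These 6 genes were taken by name, with earlier results of these data known, from 12394 genes measured in the left lung of mice. All 6 had a level on every array. Each gene was represented by the probe set that carried 1 gene symbol and had the highest mean log2 value. The study exposed 2 genotypes of mice to ozone (O3) and asked how the loss of the cytokine IL-10 alters the lung response. Il10+/+ mice were C57BL/6 and Il10-/- mice were B6.129P2-Il10tmlCgn/J, a line in which the gene is disrupted in every cell. All were males 6 to 8 weeks old from 1 supplier. They breathed filtered air (0 ppm O3) for 24 or 48 hr, or 0.3 ppm O3 for 24, 48 or 72 hr, with exposure running 23.5 hr in each day. Per genotype there were 4 air arrays, 2 at each time, which were pooled here, and 3 O3 arrays at each time. 1 of the 26 arrays, replicate 2 of the Il10-/- mice at 24 hr of O3, was left out, so that group had 2 arrays. There was no 72 hr air group. The labels number the arrays within a group but do not say that each came from a different animal, so the p-values measure the spread between arrays.

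Most IL-6 family cytokines act through receptor complexes that contain gp130, the product of Il6st, which is carried by most cell types. IL-6 first binds its own receptor chain, encoded by Il6ra, IL-11 uses a receptor chain of its own, LIF signals through gp130 with the LIF receptor, and oncostatin M signals through gp130 with the chain encoded by Osmr. Bound receptors activate Janus kinases (JAKs) and the transcription factor STAT3, whose targets include acute-phase genes and Socs3, a feedback inhibitor of the pathway. In the lung, IL-6 is released by epithelial cells, macrophages and fibroblasts after injury.

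Levels are log2 values normalized by the submitters with the robust multichip average (RMA), so a difference of 1 is a doubling on the array's scale. The tissue label was borne out by lung markers: over the 25 arrays the surfactant gene Sftpc lay between 14.29 and 14.48 and the club cell gene Scgb1a1 between 14.08 and 14.40. The targeted gene did not behave as a plain loss of signal. The Il10 probe set read 3.92 to 4.25 on the Il10+/+ arrays and 6.29 to 7.71 on the libraries labelled Il10-/-, except for the library labelled Il10-/- air 48 hr replicate 1, which read 3.87. Which part of the gene that probe set covers is not given in the sources used here, so it settles no label, and each result that changed without that library is given with its value below. The left-out array stood apart from the rest: alveolar type 2 cell markers averaged 5.81 on it against 13.09 to 13.37 on the 23 arrays outside its group, and B cell markers averaged 11.46 against 6.13 to 8.71.

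The windows around the start sites of the 3 members that rose under O3 at more than 1 time, Il6, Lif and Osmr, are printed. So is a window of Il11, which passed no test. The printed windows are all those of the members that held a match to a short binding motif searched here. They come from RefSeq (GRCm38.p6), run from 250 bases before to 50 bases after the annotated start, and are written in the direction of the gene with motif matches in capitals. The Il6 window lies at chr5:30012864-30013163 (+ strand), Lif at chr11:4257318-4257617 (+ strand), Osmr at chr15:6874264-6874563 (- strand) and Il11 at chr7:4778092-4778391 (- strand).
Il6: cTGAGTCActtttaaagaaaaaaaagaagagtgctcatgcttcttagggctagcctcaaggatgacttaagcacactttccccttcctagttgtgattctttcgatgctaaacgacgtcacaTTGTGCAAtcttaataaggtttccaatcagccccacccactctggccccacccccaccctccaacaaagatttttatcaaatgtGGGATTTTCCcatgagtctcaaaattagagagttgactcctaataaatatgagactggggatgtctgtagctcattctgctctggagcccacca
Lif: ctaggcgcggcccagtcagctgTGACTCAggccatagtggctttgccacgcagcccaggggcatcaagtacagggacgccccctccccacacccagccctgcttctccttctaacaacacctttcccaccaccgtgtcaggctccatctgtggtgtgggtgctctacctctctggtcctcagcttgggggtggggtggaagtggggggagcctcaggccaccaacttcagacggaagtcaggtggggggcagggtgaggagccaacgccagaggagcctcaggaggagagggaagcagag
Osmr: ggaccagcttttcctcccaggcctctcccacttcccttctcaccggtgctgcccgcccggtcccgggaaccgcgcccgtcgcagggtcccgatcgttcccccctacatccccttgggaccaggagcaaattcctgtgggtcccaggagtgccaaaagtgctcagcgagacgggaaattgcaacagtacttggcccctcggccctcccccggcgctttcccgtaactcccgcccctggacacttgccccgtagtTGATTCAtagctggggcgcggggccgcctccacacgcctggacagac
Il11: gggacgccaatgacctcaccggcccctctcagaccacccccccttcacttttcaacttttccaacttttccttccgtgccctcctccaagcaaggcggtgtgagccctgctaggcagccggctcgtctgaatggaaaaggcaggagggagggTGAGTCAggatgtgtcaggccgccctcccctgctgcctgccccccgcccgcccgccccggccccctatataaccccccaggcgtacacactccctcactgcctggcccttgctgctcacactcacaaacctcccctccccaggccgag
The motifs searched, on both strands, were TGANTCA for AP-1, GGGATTTTCC with any base at the fifth place for NF-kappaB, TTGNNCAA for C/EBP and TTCNNNGAA for STAT factors, and they were chosen with the Il6 promoter in mind. Each of the 4 printed windows held 1 match to TGANTCA, a pattern present in 7.81% of 32851 windows of the same length. The letters were TGAGTCA in Il6 and Il11, TGACTCA in Lif and TGATTCA in Osmr, which alone had neither C nor G at the fourth place. The match began at position -249 in Il6, -228 in Lif, -98 in Il11 and 4 in Osmr, counted from the start site. The Il6 window also held the NF-kappaB letters at -44, a motif found in 0.411% of windows, and the C/EBP letters at -128, found in 6.4%. None of the 4 windows held the STAT letters, which 8.3% of all windows do. The windows of Il6ra and Il6st, and a second annotated window of Il11, had no match to any of the 4 motifs. A match is a run of letters and says nothing on whether a factor was bound.

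Il6, Lif and Osmr rose under O3 in both genotypes, by 0.54 to 1.01 on the log2 scale where the test was passed, while Il11 and Il6ra passed in none of the 6 comparisons with air in the fit over 25 arrays. Il6st passed in 1 comparison, at 24 hr in the absence of IL-10. All tests were limma fits over the 25 arrays, with p-values adjusted by the Benjamini-Hochberg method over 12394 genes and a threshold of 0.05. The 3 times of a genotype share the same 4 air arrays.
In Il10+/+ mice, 0 of 6 members passed at 24 hr, 3 were higher at 48 hr (Il6, Lif and Osmr) and 2 at 72 hr (Lif and Osmr). Over all genes 0.0484%, 2.71% and 2.47% were called higher at the 3 times and 0%, 1% and 0.686% lower. In the other genotype 2 members were higher at 24 hr (Il6st and Lif), 3 at 48 hr and the same 3 at 72 hr (Il6, Lif and Osmr), against 1.32%, 4.04% and 4.25% of all genes higher and 0.766%, 2.29% and 1.62% lower. No member was called lower in this fit. The median change of the 6 members was 0.17, 0.32 and 0.30 over the 3 times in Il10+/+ mice and 0.61, 0.48 and 0.30 without IL-10, while the median of all genes lay between -0.03 and 0.04. At an unadjusted p under 0.05, 730 genes passed at 24 hr in Il10+/+ mice, where 6 passed after adjustment. In an F test among the 8 groups, 4 members differed (Osmr, adjusted p = 0.000927; Lif, 0.00276; Il6, 0.00918; Il6st, 0.0258) and Il6ra and Il11 did not pass (0.567 and 0.766), against 9.96% of all genes.

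**Figure D1:**
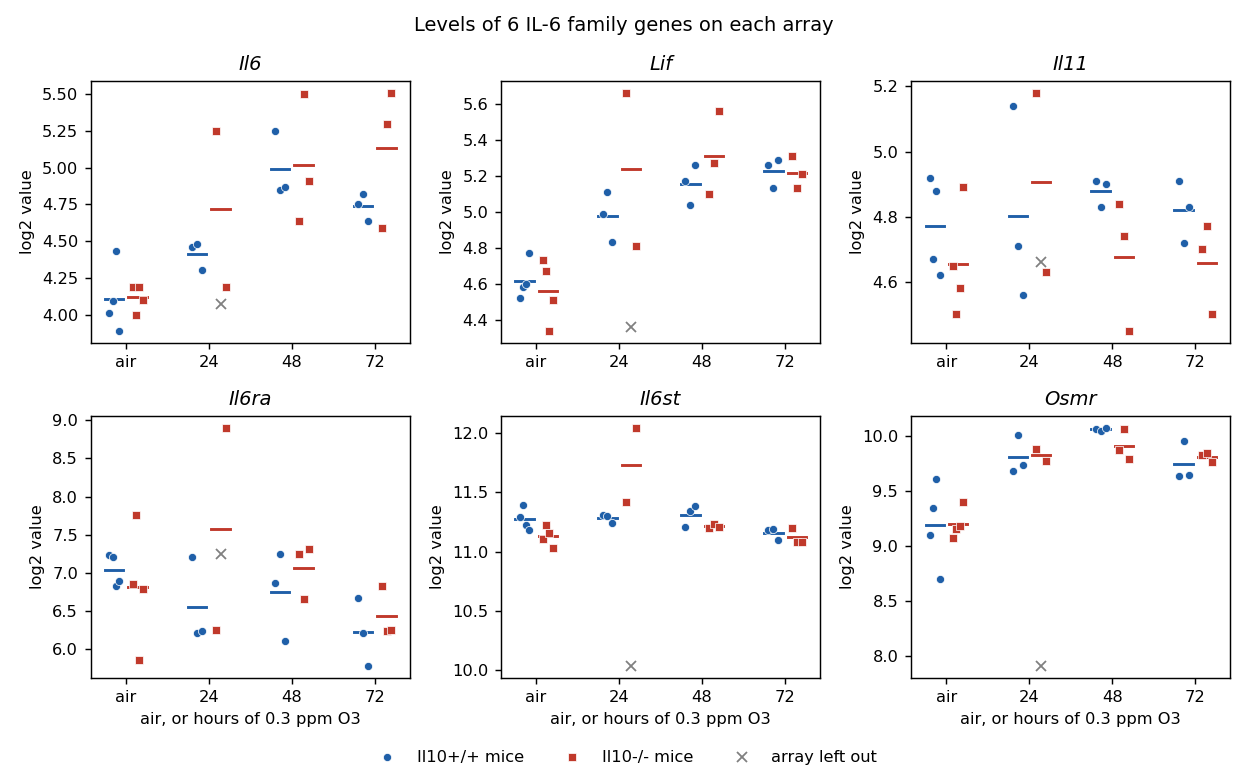
Log2 values of the 6 genes on each array (y axis) in air and after 24, 48 and 72 hr of 0.3 ppm O3 (x axis), with circles for Il10+/+ mice, squares for Il10-/- mice, bars for group means and a cross for the array left out. Lif and Osmr lie above their own genotype's air arrays at each time, Il11 shows no such separation, and the 2 kept Il10-/- arrays at 24 hr lie far apart for Il6ra (6.25 and 8.90).

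Il6, whose product is a main driver of the acute-phase response, had low values on all arrays. In Il10+/+ mice it read 4.01, 4.09, 4.43 and 3.89 in air, 4.46, 4.48 and 4.30 at 24 hr of O3, 5.25, 4.85 and 4.87 at 48 hr, and 4.75, 4.82 and 4.64 at 72 hr. The 24 hr arrays overlapped the highest air array, and all arrays at 48 and 72 hr lay above all air arrays. The change from air was 0.31 (SE 0.23) at 24 hr, 0.89 (SE 0.23) at 48 hr, a 1.85-fold rise, and 0.63 (SE 0.23) at 72 hr, and of these only the 48 hr change passed the limma test (adjusted p = 0.918, 0.0290 and 0.153).
Il6 in Il10-/- mice read 4.19, 4.00, 4.19 and 4.10 in air, 5.25 and 4.19 at 24 hr, 4.64, 5.50 and 4.91 at 48 hr, and 4.59, 5.30 and 5.51 at 72 hr. Of the 2 arrays at 24 hr, 1 was among the higher of the series and 1 at the level of air, and the later O3 arrays all lay above air but spread more widely than in Il10+/+ mice. The changes were 0.60 (SE 0.26), 0.90 (SE 0.23) and 1.01 (SE 0.23), the last a 2.02-fold rise, with limma adjusted p = 0.228, 0.0177 and 0.00909.
The 48 hr call in Il10+/+ mice was lost when any 1 of 6 arrays was left out (air 24 hr replicates 1 and 2, air 48 hr replicate 2 and each of the 3 O3 arrays), with adjusted p up to 0.135. In Il10-/- mice the 48 hr call was lost without replicate 2 at 48 hr (adjusted p = 0.156) and the 72 hr call without replicate 2 or 3 at 72 hr (0.0523 and 0.0962).

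Lif, which encodes leukaemia inhibitory factor, showed a narrower spread. In Il10+/+ mice it read 4.52, 4.58, 4.60 and 4.77 in air, 4.99, 5.11 and 4.83 at 24 hr, 5.17, 5.04 and 5.26 at 48 hr, and 5.26, 5.13 and 5.29 at 72 hr. Lif in Il10-/- mice read 4.73, 4.67, 4.34 and 4.51 in air, 5.66 and 4.81 at 24 hr, 5.10, 5.27 and 5.56 at 48 hr, and 5.31, 5.13 and 5.21 at 72 hr. In both genotypes and at all 3 times each O3 array was above each air array.
The changes in Il10+/+ mice were 0.36, 0.54 and 0.61 (SE 0.15 each), with limma adjusted p = 0.786, 0.0412 and 0.0206. In Il10-/- mice they were 0.67 (SE 0.17), 0.75 and 0.65 (SE 0.15 each), with limma adjusted p = 0.0371, 0.00252 and 0.00980. The largest of these was a 1.68-fold rise.
The calls in Il10+/+ mice sat close to the threshold. That at 48 hr was lost without any 1 of 12 arrays (adjusted p from 0.0502 to 0.202), among them air 24 hr replicates 1 and 2, air 48 hr replicate 1, O3 24 hr replicate 1, all 3 arrays at 48 hr and all 3 at 72 hr, and, of Il10-/- mice, replicates 2 and 3 at 72 hr. That at 72 hr was lost without air 24 hr replicate 1 (0.0678) and without replicate 1 or replicate 3 of the 72 hr O3 arrays (0.0794 and 0.125). In Il10-/- mice the 24 hr call held in 2 of 8 alternative fits, those leaving out 1 array aside (highest adjusted p = 0.794). That call was lost without the library labelled Il10-/- air 48 hr replicate 1 (adjusted p = 0.103). It was also lost without air 48 hr replicate 2 (0.0731). Without replicate 1 at 24 hr, which left 1 array in the group, the change fell to 0.25. A second probe set assigned to Lif changed by -0.09 to 0.23 in the 6 comparisons and passed in none.

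Il11, whose product shares gp130 with IL-6, stayed within a narrow band. Its group means ran from 4.65 in Il10-/- mice at 72 hr to 4.90 in Il10-/- mice at 24 hr, and the ranges of all 7 neighbouring pairs of groups overlapped. The changes from air were at most 0.25, with SEs of 0.14 to 0.16, and their 95% intervals reached from -0.30 to 0.58. The 3 ligand genes ranked low by mean log2 value, with 19.4% (Il6), 26.1% (Lif) and 22.5% (Il11) of genes below them, and no detection call was used here that would place them above or below background.

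**Figure D2:**
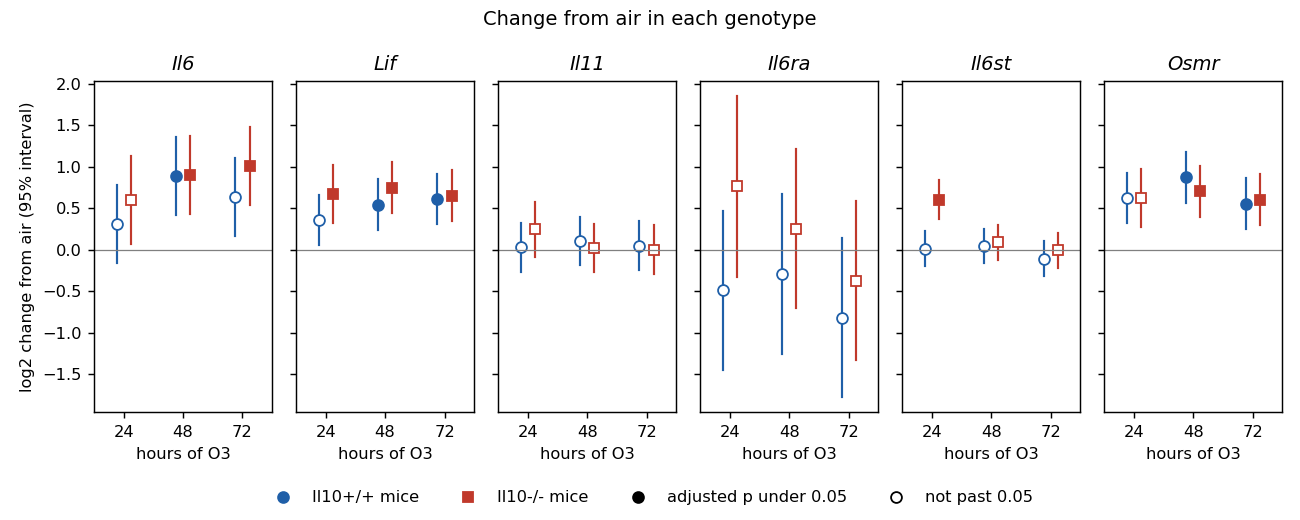
Log2 change from the air mean of the same genotype (y axis) for each gene at 24, 48 and 72 hr of O3 (x axis), with 95% intervals from the limma fit; circles stand for Il10+/+ and squares for Il10-/- mice, and filled symbols passed an adjusted p of 0.05. Il6, Lif and Osmr lie above 0 in both genotypes, Il6st is filled at 24 hr in Il10-/- mice alone, and the Il6ra intervals are the widest.

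Osmr, the receptor chain that pairs with gp130 for oncostatin M, had the smallest adjusted p of the 6 in Il10+/+ mice at 48 hr. Its levels in that genotype were 9.10, 9.34, 9.61 and 8.70 in air, 9.68, 10.01 and 9.73 at 24 hr, 10.06, 10.04 and 10.07 at 48 hr, and 9.63, 9.95 and 9.64 at 72 hr. The air arrays covered a range of almost 1 log2 unit, while the 3 arrays at 48 hr were nearly equal, and no O3 array fell to the level of an air array.
Osmr in Il10-/- mice read 9.07, 9.15, 9.18 and 9.40 in air, 9.88 and 9.77 at 24 hr, 9.87, 10.06 and 9.79 at 48 hr, and 9.82, 9.84 and 9.76 at 72 hr. Here too the groups did not overlap.
The changes were 0.62, 0.87 and 0.55 in Il10+/+ mice (SE 0.15 each, limma adjusted p = 0.194, 0.00105 and 0.0419) and 0.62 (SE 0.17), 0.71 and 0.60 (SE 0.15 each) in Il10-/- mice (0.0544, 0.00443 and 0.0170). The 48 hr rise in Il10+/+ mice was 1.83-fold.
With all 26 arrays the 48 hr calls of both genotypes were lost. Against air of the same exposure time, the 48 hr call held in Il10+/+ mice (limma adjusted p = 0.0118) and was lost in Il10-/- mice. Both 48 hr calls held in each of the 25 fits that left out 1 array. The 72 hr call in Il10+/+ mice was lost in 13 of them (adjusted p from 0.0511 to 0.209): without any array at 72 hr, 48 hr O3 replicates 1 or 2, 24 hr O3 replicate 3, air 24 hr replicate 1 or air 48 hr replicate 2, and, among arrays of the other genotype, without any at 72 hr, air 24 hr replicate 1 or the one labelled Il10-/- air 48 hr replicate 1 (0.0513). The 72 hr call in Il10-/- mice was lost without air 24 hr replicate 1 (0.0511) or any array at 72 hr (0.0524 to 0.0628). At 24 hr, a call was gained in Il10+/+ mice without air 48 hr replicate 1 (0.0245). In Il10-/- mice a 24 hr call was gained without Il10+/+ air 48 hr replicate 1 or 2 (0.0239 and 0.0147). Without O3 24 hr replicate 3, which left 1 array in the Il10-/- group, the change was 0.68. A second Osmr probe set changed by 0.27 to 1.05, in the same direction in all 6 comparisons, and passed in none, its lowest adjusted p being 0.0510 over all 20393 probe sets.

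Il6st, the gp130 gene, hardly moved in 5 of the 6 comparisons, with changes of -0.11 to 0.09 (SE 0.10 each). In Il10+/+ mice all 13 arrays lay between 11.10 and 11.39. In Il10-/- mice it read 11.11, 11.22, 11.16 and 11.03 in air, 11.20, 11.23 and 11.21 at 48 hr, and 11.20, 11.08 and 11.08 at 72 hr, but 11.42 and 12.04 on the 2 arrays at 24 hr, both above the other 23 arrays. The 24 hr change was 0.61 (SE 0.12, limma adjusted p = 0.00689). Without replicate 3, which left 1 array in the group, it fell to 0.29. The 24 hr call held in 4 of 9 alternative fits, those leaving out 1 array aside (highest adjusted p = 0.935). For the same comparison the other Il6st probe sets gave 0.64 (SE 0.28, adjusted p = 0.276) and 0.15 (SE 0.62, adjusted p = 0.948) in a fit over all probe sets.

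Il6ra, the IL-6 binding chain, was the most variable of the 6 genes. In Il10+/+ mice it read 7.23, 7.20, 6.83 and 6.89 in air, 7.20, 6.21 and 6.24 at 24 hr, 6.87, 7.25 and 6.11 at 48 hr, and 6.67, 6.21 and 5.78 at 72 hr. The 72 hr arrays were all below the air arrays, with a change of -0.82 (SE 0.46, limma adjusted p = 0.425). The Il10-/- arrays read 6.85, 7.76, 5.85 and 6.79 in air, 6.25 and 8.90 at 24 hr, 7.24, 6.65 and 7.31 at 48 hr, and 6.82, 6.24 and 6.25 at 72 hr. None of its 6 changes passed over the 25 arrays. In a fit to only the arrays compared, the 72 hr change in Il10+/+ mice passed (adjusted p = 0.0458). With the last letter of the source name as a covariate, the 72 hr change in Il10-/- mice was -1.43 and passed (0.0320), and the 48 hr change in that genotype turned from 0.25 to -0.80. A second Il6ra probe set also passed in none, and at 48 hr in both genotypes and at 24 hr in Il10+/+ mice its change had the opposite sign to that of the first.

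The 2 kept Il10-/- arrays at 24 hr differed from each other by more than most group changes. Replicate 1 stood 1.13 above the Il10-/- air mean for Il6 and 1.10 for Lif, and replicate 3 stood 0.07 and 0.25 above it. Replicate 3 stood 2.09 above air for Il6ra and 0.91 for Il6st, against -0.56 and 0.29 on replicate 1. For Osmr the arrays were alike, at 0.68 and 0.57. So in this group Il6 and Lif were high on 1 array and Il6ra and Il6st on the other.
Without replicate 1, the Il6ra change at 24 hr was 2.09. Without replicate 3, the Il6 change was 1.13. Either fit left 1 array in the group, so the spread within the group could not be measured. The 2 kept arrays also differed in cell type markers. The mean of 8 fibroblast markers was 10.84 on replicate 1 and 9.53 on replicate 3, against 10.51 to 11.26 on the 23 arrays outside the group, and the mean of 5 markers of dividing cells was 6.57 and 5.04. The means of 6 T cell markers were 6.97 and 5.98, those of 4 B cell markers 7.23 and 6.00, and those of 8 neutrophil markers 7.97 and 7.71. The part of these cells in the member levels was not tested. With the left-out array added, the 24 hr changes became 0.39 for Il6, 0.38 for Lif, 0.04 for Il6st and -0.01 for Osmr, and none of the 6 members passed in any comparison with air.

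**Figure D3:**
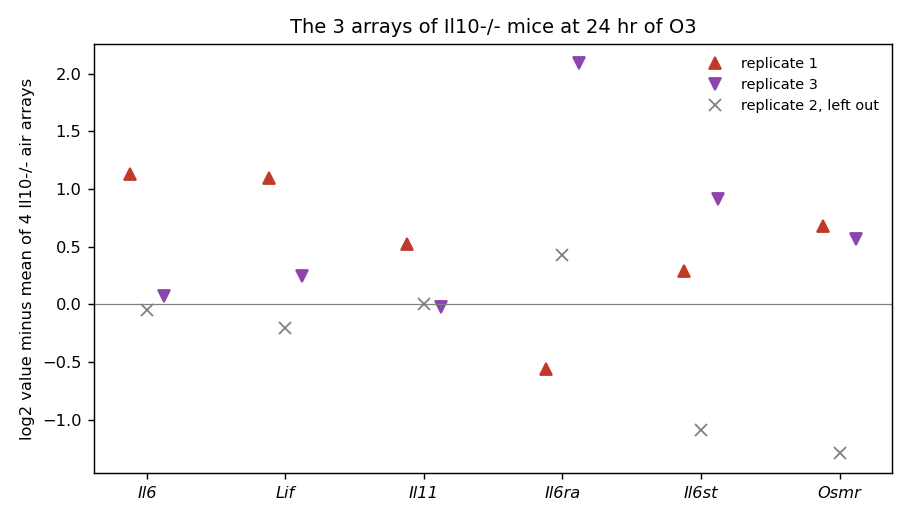
Log2 value of each gene on each of the 3 arrays of Il10-/- mice at 24 hr of O3, minus the mean of the 4 Il10-/- air arrays (y axis); triangles are the 2 arrays kept and crosses the array left out. The arrays kept lie close together for Osmr (0.68 and 0.57) and far apart for Il6ra (-0.56 and 2.09), and the left-out array lies below air for Il6st (-1.09) and Osmr (-1.29).

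Counted by separation alone, every O3 array lay above every air array of the genotype for 2, 3 and 3 of the 6 members at 24, 48 and 72 hr in Il10+/+ mice, and for 3, 3 and 3 in Il10-/- mice. Over all 12394 genes the same held for 4.4%, 8.92% and 9.34% in Il10+/+ mice and for 11.5%, 8.58% and 11.5% in Il10-/- mice, where the 24 hr group had 2 arrays. In the order of the 8 group means, Il6 was highest in Il10-/- mice at 72 hr (5.13 ± 0.49 SD, n = 3) and 48 hr (5.02 ± 0.44 SD, n = 3) and in Il10+/+ mice at 48 hr (4.99 ± 0.23 SD, n = 3), and these 3 overlapped. For Lif and for Osmr the 6 O3 groups came first, each overlapping the next in the order, and the only gap between neighbours was that between the lowest O3 group and the air groups. Il6st had gaps below the Il10-/- 24 hr group (11.73 ± 0.44 SD, n = 2) and between Il10-/- mice at 48 hr and Il10+/+ mice at 72 hr, while all neighbouring groups overlapped for Il6ra and Il11.

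The genotypes were compared in air, over the 3 O3 times and as a difference in the response to O3. In air, 0 of 6 members passed (0.00807% of all genes did), with differences of Il10-/- minus Il10+/+ mice from -0.23 for Il6ra to 0.01 for Il6 and Osmr. Over the O3 groups 0 of 6 passed (0.637% of all genes did). The largest were 0.52 for Il6ra (95% interval -0.09 to 1.14) and 0.24 for Il6 (-0.06 to 0.55), and the others were 0.13 for Lif (-0.06 to 0.33), 0.10 for Il6st (-0.03 to 0.24), -0.02 for Osmr (-0.22 to 0.17) and -0.09 for Il11 (-0.28 to 0.10). These intervals leave room for differences of up to 0.55 in Il6, and do not show that the genotypes were alike. The other Il6st probe sets differed by 0.47 (SE 0.16) and 0.51 (SE 0.35) over O3, and by 0.39 and 0.70 in air. The second Osmr probe set differed by 0.11 over O3 and 0.51 (SE 0.27) in air. Those of Il6ra and Lif differed by 0.09 and 0.13 over O3. None of these passed in the limma fit over all probe sets. Without replicate 1 of the Il10-/- 24 hr arrays, the difference over O3 was 0.96 for Il6ra and 0.21 for Il6st. Without replicate 3 it was 0.27 for Lif. Each of these fits left 1 array in that group.
In the interaction test 0 of 6 members and 0% of all genes passed after adjustment, and 417 genes had an unadjusted p under 0.05. Of the members, Il6st alone was among these 417 (limma adjusted p = 1.00). Its 24 hr change was larger in Il10-/- mice by 0.59 (SE 0.15, 95% interval 0.27 to 0.91, limma adjusted p = 0.323). Leaving out replicate 1 or 3 of the Il10-/- 24 hr arrays left 1 array in that group, whose spread could not then be measured. For Il6, the difference in response was 0.30 at 24 hr, 0.01 at 48 hr (95% interval -0.65 to 0.68) and 0.38 at 72 hr (-0.29 to 1.04).

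Of the other parts of the pathway, the target genes, which form the longest list, rose in largest number and size. The lists of pathway genes were drawn up with earlier results of these data known, so their counts are descriptions. Of the other ligands, 3 of 8 were measured (Ctf1, Clcf1 and Ebi3), and of the other receptor chains 4 of 6 (Lifr, Cntfr, Il27ra and Il31ra), and none of these 7 passed in any comparison of O3 with air or of the genotypes. The gene for oncostatin M, the ligand of the Osmr chain, was not analysed here. Of 10 measured kinases, STATs, adaptors and sheddases, Gab1, an adaptor protein, was called in 1 comparison, lower in Il10-/- mice at 48 hr (-0.55, SE 0.14, limma adjusted p = 0.0236).

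Among 7 inhibitors, Socs3 rose in 5 of the 6 comparisons. Socs3 ranged from 7.99 to 9.31 in Il10+/+ air and from 8.11 to 8.58 in Il10-/- air. Under O3 it ranged in Il10+/+ mice from 9.22 to 9.66 at 24 hr, 9.76 to 10.15 at 48 hr and 9.47 to 9.82 at 72 hr, and in Il10-/- mice from 10.06 to 10.39, 9.77 to 10.10 and 9.18 to 10.14. All O3 arrays of the Il10-/- mice were above their air arrays, and in Il10+/+ mice the 24 hr arrays overlapped the highest air array. The Socs3 changes were 0.88, 1.42 and 1.10 in Il10+/+ mice (SE 0.24 each, limma adjusted p = 0.330, 0.000926 and 0.00887) and 1.86 (SE 0.27), 1.55 and 1.38 (SE 0.24 each) in Il10-/- mice (0.000663, 0.000205 and 0.000839). Ptpn2, a phosphatase that acts on JAKs and STATs, rose in Il10-/- mice at 48 hr by 0.68 (SE 0.13, limma adjusted p = 0.00211) and was 0.47 above air in Il10+/+ mice at 48 hr without passing (0.0503). The other 5 inhibitors passed in no comparison of O3 with air.

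Of 16 genes listed as STAT3 or acute-phase targets, 0, 9 and 5 were higher in Il10+/+ mice at 24, 48 and 72 hr and 8, 11 and 10 in Il10-/- mice, and none was lower. Their median changes were 0.37, 0.56 and 0.47 with IL-10 present and 0.98, 0.60 and 0.52 in its absence. Saa3, a serum amyloid A protein made in the lung, went from 5.58 to 6.43 in Il10+/+ air to 8.08 to 8.45 at 48 hr, and from 5.74 to 6.37 in Il10-/- air to 10.06 to 10.99 at 48 hr, so that the O3 arrays of the genotypes did not overlap at that time. Its 48 hr changes were 2.23 and 4.43 (SE 0.46 each, limma adjusted p = 0.00667 and 2.77e-06), and it was 1.97 higher in Il10-/- mice over O3 (SE 0.29, limma adjusted p = 0.00143). Timp1, an inhibitor of metalloproteinases, rose at 48 hr in both genotypes, by 3.60 and 3.62 (SE 0.60 each). On the 2 Il10-/- arrays at 24 hr, Timp1 read 6.79 and 11.53 and Saa3 read 7.64 and 10.87. Lcn2, which binds bacterial siderophores, rose by 1.33 and 2.21 at 48 hr (SE 0.21 each), and Lrg1, a secreted glycoprotein, by 1.82 and 2.00 (SE 0.25 each). Il4ra, a receptor chain for IL-4 and IL-13, passed in Il10-/- mice at all 3 times, with 1.14 at 24 hr (SE 0.12, limma adjusted p = 8.06e-05). In Il10+/+ mice it passed at none (0.36 to 0.38, limma adjusted p = 0.426, 0.0681 and 0.0549 at 24, 48 and 72 hr). Il4ra was 0.38 higher in Il10-/- mice over O3 (SE 0.07, limma adjusted p = 0.00894). Its means in Il10-/- and Il10+/+ mice were 9.72 and 8.89 at 24 hr, 9.08 and 8.89 at 48 hr, and 9.04 and 8.91 at 72 hr. The interaction test was not passed by any of these target genes.

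**Figure D4:**
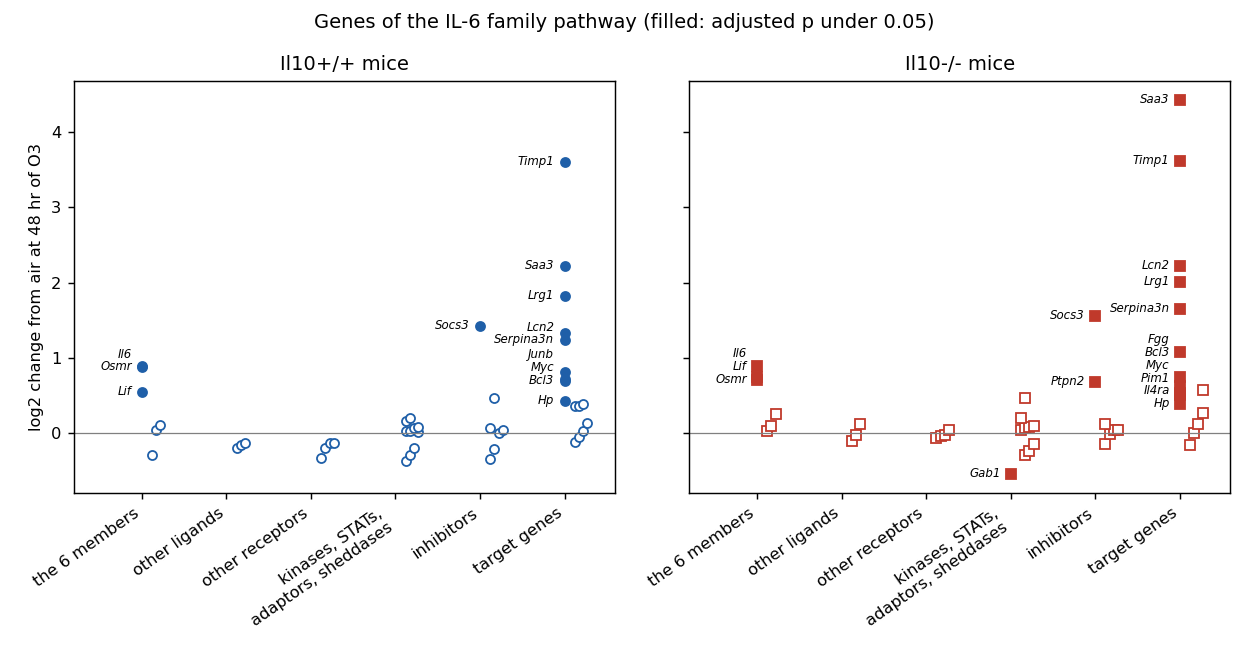
Log2 change from air at 48 hr of O3 (y axis) of each measured gene of the IL-6 family pathway, by list (x axis), in Il10+/+ mice (left) and Il10-/- mice (right); filled symbols, with names, passed an adjusted p of 0.05 and open ones did not. The 3 members called lie between 0.54 and 0.90, Timp1 lies at 3.60 and 3.62, and Saa3 is at 2.23 on the left and at 4.43 on the right.

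Markers of some cell types also changed under O3. In whole lung a change in the number of cells of a type and a change in RNA per cell cannot be told apart. All 5 markers of dividing cells were higher at 48 and 72 hr in both genotypes. Their mean level was 5.84 to 6.27 in Il10+/+ air, 7.90 to 8.76 at 48 hr and 8.53 to 8.67 at 72 hr, and 5.32 to 6.21 in Il10-/- air, 8.14 to 8.83 at 48 hr and 8.01 to 8.25 at 72 hr. At 24 hr it was 5.72 to 6.25 in Il10+/+ mice. On the 2 kept Il10-/- arrays at 24 hr it was 6.57 (replicate 1) and 5.04 (replicate 3).
Of 8 neutrophil markers none was called in Il10+/+ mice, 1 (Mmp8) was higher in Il10-/- mice at 24 and 72 hr, and 4 were higher in Il10-/- than in Il10+/+ mice over O3. The mean of the 8 was 6.86 to 7.73 in Il10+/+ air and 6.37 to 7.64, 6.42 to 7.52 and 6.74 to 6.84 at the O3 times, and 6.65 to 7.34 in Il10-/- air and 7.71 to 7.97, 7.12 to 7.62 and 7.06 to 7.66. Of 8 macrophage markers 1 (Cd68) was higher in Il10-/- mice at 72 hr, of 8 endothelial markers 3 were lower at 48 hr and 2 at 72 hr in Il10-/- mice, and no fibroblast marker was called. The part of these cells in the member changes was not tested.

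For each member that passed the F test among the 8 groups, the 3 genes whose group means ran most like it were looked up among the 1233 other genes that passed. These correlations are over 8 group means that share arrays and exposure and are given as descriptions. For Osmr they were Hp, the acute-phase protein haptoglobin (r = 0.991), Tuba4a, a tubulin (0.981), and Ccl17, a chemokine (0.979). For Lif they were Akr1b8, an aldo-keto reductase (0.993), Nhp2, a part of small nucleolar ribonucleoproteins (0.983), and Sptlc2, a subunit of serine palmitoyltransferase (0.979). For Il6 they were Psma3, a proteasome subunit (0.991), Mrpl33, a mitochondrial ribosomal protein (0.987), and Nmt1, an N-myristoyltransferase (0.984). For Il6st they were Mkrn2 (0.981), Rasd1 (0.940) and H6pd, an enzyme of the endoplasmic reticulum (0.938).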

How the data were processed

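The samples were hybridised by the authors to Affymetrix GeneChip arrays, and the deposited values are log2 values made with RMA, for 22690 probe sets on 26 arrays. The array medians lay between 6.54 and 6.68. Probe sets were named from GEO's platform annotation (20393 with 1 symbol, 691 with several, 1606 with none), and each of 12394 genes was taken from its probe set of highest mean. No low-value filter was applied. A mean for each of 8 groups was fitted with limma 3.58.1 (R 4.3.3), with empirical Bayes and Benjamini-Hochberg adjustment over all genes at 0.05, on 25 arrays: the study's methods leave out 1 array of the Il10-/- 24 hr group, without giving its number. Tables and plots were made with Python 3.11.15. On simulated data for the 48 hr comparison in Il10+/+ mice, with all 12394 genes, 52% of 100 genes changed by 0.5 and 93% of 100 changed by 1 were recovered, and 5 unchanged genes were called. The number of arrays limits the precision. The members and gene lists were chosen with earlier results of these data known. Named genes outside the members were, per list, up to 4 called under O3 by largest change and up to 2 called between genotypes. Alternatives were all 26 arrays, same-time air, array weights, a source-name letter as covariate, a low-value filter, mean probe sets, median centring, smaller fits, a replicate block and each array left out. The fit without the Il10-/- 24 hr arrays was added after seeing the data.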

Additional observations from a re-analysis of the deposited data

How the results depend on the processing

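No member called in the fit reversed under any alternative, and the members called between genotypes and in the interaction were 0 under each alternative that kept all arrays of the fit. The order below is 24, 48 and 72 hr in Il10+/+ mice, then in Il10-/- mice, for which 0, 3, 2 and 2, 3, 3 members were called. With all 26 arrays 0 members were called in each comparison. Against air of the same exposure time, 1 member was called per genotype at 48 hr. It was Osmr with IL-10 present (limma adjusted p = 0.0118) and Lif without IL-10 (0.00625). Il6 passed at 48 hr in neither genotype under this setting (0.165 with IL-10 and 0.108 without). The 24 hr count without IL-10 was 0. Fits to only the arrays compared called 0 at 24 hr in Il10-/- mice and, at 72 hr in Il10+/+ mice, added Il6 and Il6ra and lost Osmr (adjusted p = 0.147). Array weights called 1 at 24 hr in Il10+/+ mice and 0 at that time in Il10-/- mice. The source-name letter as a covariate called 0 at 72 hr in Il10+/+ mice, and 4 at that time in Il10-/- mice, Il6ra being lower (-1.43). Leaving out the low genes dropped Il6, Lif and Il11 and left 1 of 3 members called at 48 and 72 hr in each genotype. The mean of all probe sets of a gene called 1 at 72 hr in each genotype and 0 at 24 hr in Il10-/- mice. Median centring, and the fit without the Il10-/- 24 hr arrays that was chosen after seeing the data, kept the counts within 1.5 times. The causes were not tested.

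Leaving out each array in turn gave 0 to 1, 1 to 3 and 0 to 2 members in Il10+/+ mice, 1 to 3, 2 to 3 and 1 to 3 in Il10-/- mice, 0 in air, 0 to 2 over O3 and 0 to 1 in the interaction. The upper values over O3 and in the interaction came without replicate 1 of the Il10-/- 24 hr arrays. That fit, and the one without replicate 3, left 1 array in that group, with no spread of its own. Over all genes the ranges were 0 to 15, 171 to 714 and 189 to 672, then 161 to 1593, 427 to 1142 and 273 to 1188, with 0 to 18 in air, 35 to 857 over O3 and 0 to 369 in the interaction.

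Over all genes the fit called 6, 460 and 391 and then 259, 785 and 728 genes, 1 in air and 79 over O3. With all 26 arrays it called 0, 6 and 17 and then 695, 97 and 47, and 23 over O3. With array weights it called 75, 2058 and 1613 and then 0, 1649 and 1670, and 110 in air. Same-time air called 2 and 182 and then 54 and 371 at 24 and 48 hr. Fits to only the arrays compared called 0 at 24 hr in Il10-/- mice. Without the Il10-/- 24 hr arrays, 15, 714 and 672 genes of Il10+/+ mice were called, 18 in air and 1188 at 72 hr without IL-10. The source-name letter gave 425 and 1164 at 24 and 72 hr in Il10-/- mice. Adjusted over 20393 probe sets, Lif at 48 hr (0.0518) and Osmr at 72 hr (0.0517) did not pass in Il10+/+ mice.

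A fit with the replicate number as a block called 0, 2 and 2 and then 2, 3 and 3 members. The block took from Lif its calls at 48 hr with IL-10 present (adjusted p = 0.0518) and at 24 hr without it (0.0546), and gave Osmr a call at 24 hr in Il10-/- mice (0.0476). The labels do not say that a number pairs arrays across groups, and of 30 same-numbered pairs 20 had deviations that correlated above 0.1 (range -0.13 to 0.46). In the two-way test of the methods, run on the same values, 99 genes had an interaction at their p of 0.01, 1 of them a member (Il6st), and 0 passed after Benjamini-Hochberg adjustment.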
